A study of Mus musculus with 6 samples.

Results

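Insulin signalling and glucose uptake were followed in epididymal white adipose tissue through 10 genes chosen by name: the activating components Insr, Irs1, Irs2, Pik3r1, Akt2, Tbc1d4, Slc2a4 and Gys1, and the inhibitors Grb14 and Ptpn1. The gene name column of the arrays held 9 of them, with 19 probes, among 19194 genes or unnamed features tested and 41174 probes in all. No probe was named Irs2, which is therefore not analysed here. All 19 probes passed the filter on dim probes (a minimum of 3 of the 6 arrays on which the scanner software marked the spot as well above background), and 18 of them were so marked on all 6 arrays. The study compared 3 patDp/+ mice, which carry an extra copy, inherited from the father, of a stretch of chromosome 7, with 3 wild type mice. All 6 animals were C57BL/6 males aged 9 to 10 weeks, which the study calls young adult, and each was measured on 1 one-colour Agilent array. The series' title places the work in obesity of late onset and altered lipid metabolism. The labels give no plasma insulin, glucose or body weight, and a whole fat pad was sampled, so that fewer cells of a type and less RNA per cell cannot be told apart.

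Insulin acts on fat cells through a receptor tyrosine kinase that phosphorylates docking proteins, which in turn recruit phosphoinositide 3-kinase and activate the kinase Akt. Akt phosphorylates the Rab GTPase-activating protein made from Tbc1d4, and this releases vesicles with the glucose transporter GLUT4 to the cell surface, where glucose enters for storage as lipid and, to a small extent, glycogen. The pathway is held in check by proteins that bind the receptor, such as Grb14, and by phosphatases, such as the one encoded by Ptpn1. Much of this control acts on proteins and their phosphorylation, which a transcript array does not measure.

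The probes are oligonucleotides of 60 bases. They are shown for Tbc1d4, Insr, Gys1 and Grb14, since the value printed for a gene is the value of such a stretch of its transcript. As in Tbc1d4 and Insr, the probes of Irs1, Pik3r1 and Akt2 differed in value from one another, but their sequences are not shown. Coordinates are on mm9, sequences run 5′ to 3′ in the sense of the transcript, and probes of a gene are numbered from the brightest down. Probe 1 of Tbc1d4 (chr14:101864965-101876239, minus strand) covers 11275 bases of the genome with 60 bases of sequence and so joins exons across a gap of 11215 bases. Probe 2 (chr14:101878355-101878414) and probe 3 (chr14:101843898-101843957) each lie in 1 piece and are assigned to the RefSeq transcript, like probe 1. Probe 4 of Tbc1d4 (chr14:101851498-101851557) lies between them on the same strand and is assigned to a GenBank cDNA instead of the RefSeq transcript. None of its 3 forward reading frames is free of stop codons, against 1 in each of probes 1 and 2 and 2 in probe 3. Probe 2 of Insr lies at chr8:3159473-3159532, and probe 1, at chr8:3151667-3151726, has no open forward frame. The single probes of Gys1 (chr7:52710946-52711005, plus strand) and Grb14 (chr2:64750720-64750779, minus strand) are also given. Some probes are shown by their first 30 bases only.
Tbc1d4 probe 1: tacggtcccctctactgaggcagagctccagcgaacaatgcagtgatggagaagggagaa
Tbc1d4 probe 2: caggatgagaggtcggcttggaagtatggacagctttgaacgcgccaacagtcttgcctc
Tbc1d4 probe 3: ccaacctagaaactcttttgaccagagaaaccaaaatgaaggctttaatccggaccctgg
Tbc1d4 probe 4, first 30 bases: ggcagagttctaagtaaaattcaaatgaca
Insr probe 2: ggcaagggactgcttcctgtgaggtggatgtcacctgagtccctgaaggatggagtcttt
Insr probe 1, first 30 bases: cagattctagctaatgaattcttgacaaca
Gys1, first 30 bases: ttgcaggatgcattctttgtgcactgatct
Grb14, first 30 bases: taggatggctgtttagccaaactgtgtgtc
Whether a probe lies in coding or noncoding exon sequence was not analysed here.

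No member passed the test over all genes. The difference between the group means was larger than the pooled SD within groups for 10 of the 19 probes. The share of all kept probes with such a difference was not computed, and several of the 19 probes belong to the same gene. This count is therefore not read as a result about the members. Values are log2 intensities relative to the 75th percentile of their array, and every difference is patDp/+ minus wild type. Levels of different probes are not set against each other, because probes differ in brightness. The summed levels of tissue markers below are an exception, and the brightest probes weigh most in them. In limma, 0% of the 19194 genes reached an adjusted p under 0.05, while 5.6% had an unadjusted p under 0.05. Of the 9 measured members, 1 had an unadjusted p under 0.05. That member was Gys1, which encodes the glycogen synthase of muscle and fat. Among the 7 measured activating components, 6 had a negative difference, beside 52.7% of all genes, and their median was -0.12. Tbc1d4 is counted among them as a part of the pathway, although its protein holds GLUT4 vesicles back until it is phosphorylated. Its negative difference is therefore not read as lower activation. Both inhibitors had a positive difference, beside 47.3% of all genes, with a median of 0.47. The median over all genes tested was -0.01. With 7 and 2 genes, and with members that were chosen with earlier results of these data known, these counts and medians are a description and carry no test.

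**Figure D1:**
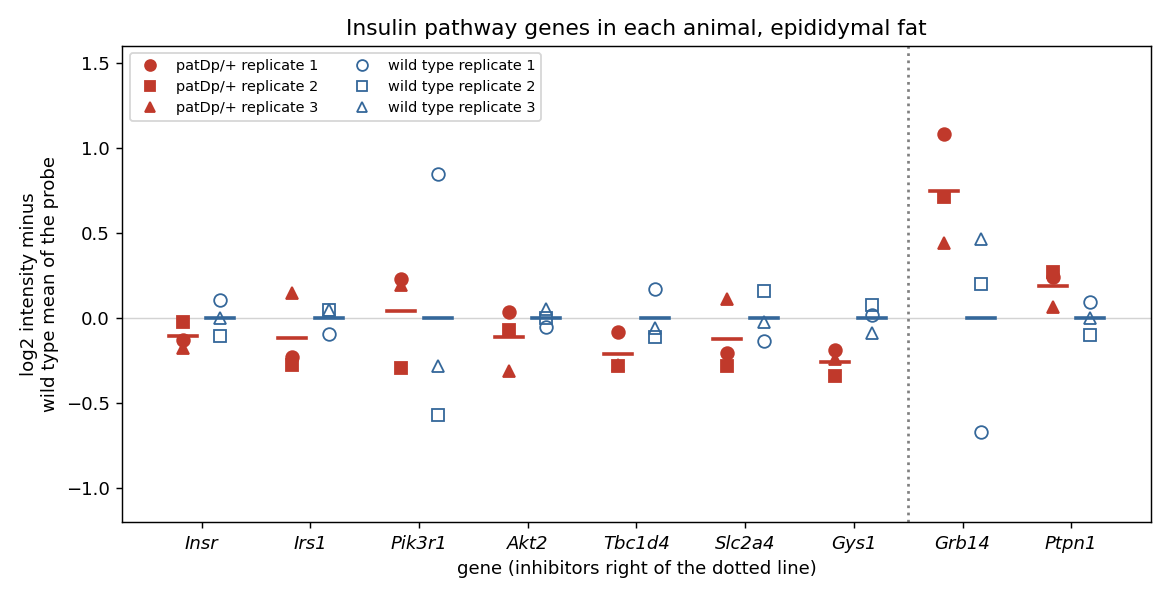
Log2 intensity of each gene's brightest probe in the 6 animals, relative to the wild type mean of that probe. Filled red symbols are patDp/+ animals, open blue symbols wild type animals, symbol shapes the replicate number, and bars the group means. For Gys1 all patDp/+ animals lie below all wild type animals, whereas the groups overlap for the other 8 genes.

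The label of each array was checked through genes of the duplicated stretch. Snrpn, Ndn and Ube3a had differences of 1.19, 1.08 and 0.50, with every patDp/+ array above every wild type array. Akt2 and Gys1 also lie on chromosome 7, but outside that stretch: their probes end 34.9 Mb and 10.6 Mb before the start of the first Herc2 probe, at 63353727. All arrays correlated with one another at 0.988 to 0.994 across genes, which are not independent replicates. Spots well above background made up 63.8% to 72.1% of the patDp/+ arrays and 66.9% to 69.1% of the wild type arrays, and the number of arrays limits the precision. Per the file headers, animals with the same replicate number shared a slide and a scan, so that each of the 3 slides held 1 patDp/+ and 1 wild type animal.

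Among the tissue markers, all 7 adipocyte markers were measured, and their summed level on a linear scale was 1663 to 1824 in patDp/+ fat and 1725 to 1989 in wild type fat. Of these markers 6 had a negative difference. The median over all 7 was -0.10, close to the -0.12 of the activating components, and their part in that median was not tested. The exception was Lep, with a difference of 0.45 ± 0.19 (SE). It read 2.88, 2.73 and 2.20 in patDp/+ fat, against 1.99, 2.31 and 2.16 in wild type fat, with overlapping groups. Of 7 skeletal muscle markers, Myh4, Ckm and Pvalb were too dim to pass the filter. The summed level of the other 4 was 3.90 to 7.46 in patDp/+ fat, against 1.87 to 2.38 in wild type fat. Most of it came from Acta1, an actin gene of skeletal muscle, which had values of 2.06, 1.87 and 2.86 in patDp/+ fat, against 0.72, 1.11 and 1.05 in wild type fat. The other measured muscle markers, Myh1, Tnnt3 and Mylpf, had differences of 0.24, 0.01 and -0.06, with overlapping groups. All 6 macrophage markers had a positive difference, with a summed level of 31.3 to 39.4 in patDp/+ fat and 29.6 to 31.0 in wild type fat. All 5 endothelial markers had a negative difference, with a summed level of 20.7 to 24.6 in patDp/+ fat and 23.6 to 25.9 in wild type fat. The 5 measured T cell markers had a median difference of 0.45 and the 4 measured B cell markers one of -0.67. The part of these cell types in the values below was not tested.

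Insr encodes the insulin receptor. Its brighter probe had values of 0.43, 0.53 and 0.38 in patDp/+ fat, against 0.66, 0.45 and 0.55 in wild type fat. The groups overlapped, and the difference was -0.11 ± 0.09 (limma SE), with an unadjusted p = 0.277 and an adjusted p = 0.932. The second probe, much dimmer, had -3.63, -3.44 and -3.39 in patDp/+ fat, against -3.14, -3.35 and -3.11 in wild type fat. There every patDp/+ animal lay below every wild type animal, beside 5.64% of all 27975 kept probes whose groups stood apart in this direction. The difference of the second probe was -0.29 ± 0.11 (SE), with a 95% confidence interval of -0.55 to -0.02, an unadjusted p = 0.0374 and an adjusted p = 0.96 in limma over all probes. Of all kept probes, 5.15% had an unadjusted p under 0.05 in either direction, and 0% passed the adjusted threshold. With normexp background correction its sign turned, to 0.33, and with the deposited table the difference was -0.10.

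Irs1 encodes the docking protein that links the receptor to phosphoinositide 3-kinase. Its brighter probe read 3.02, 2.97 and 3.39 in patDp/+ fat, against 3.15, 3.29 and 3.29 in wild type fat. The highest and the lowest animal were both patDp/+, so the groups overlapped. Their difference was -0.12 ± 0.13 (SE, limma adjusted p = 0.948). The second probe, nearer to the start of the transcript, had a difference of 0.0031 ± 0.12 with a confidence interval of -0.30 to 0.30.

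Pik3r1, which encodes the main regulatory subunit of phosphoinositide 3-kinase, had the largest SD within groups among the brightest probes of the activating components. Probe 1 read 2.95, 2.43 and 2.92 in patDp/+ fat, against 3.57, 2.16 and 2.44 in wild type fat. Probe 2 read 2.01, 0.62 and 2.18 in patDp/+ fat, against 2.46, 0.64 and 0.74 in wild type fat. Probes 3 and 4 ran the same way, and on all 4 probes wild type replicate 1, patDp/+ replicate 1 and patDp/+ replicate 3 were the 3 highest animals. The brightest animal exceeded the dimmest by 2.67-fold on probe 1, 3.56-fold on probe 2, 2.15-fold on probe 3 and 2.29-fold on probe 4. The SD within groups was 0.57 for probe 1, larger than that of 95.8% of all genes, whose median SD was 0.15. The genotype difference was 0.04 ± 0.38 (SE, limma adjusted p = 0.995) for probe 1 and ranged from -0.05 to 0.33 over the 4 probes. The confidence interval for probe 1 was -0.88 to 0.97. Within slides 1, 2 and 3 the difference of probe 1 was -0.62, 0.27 and 0.48, and it was -0.24 without wild type replicate 2.

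Akt2 encodes the form of Akt that carries most of the insulin signal to glucose uptake in fat and muscle. Its brighter probe had 2.94, 2.83 and 2.59 in patDp/+ fat, against 2.85, 2.90 and 2.95 in wild type fat. The second probe had 1.98, 1.55 and 1.45 in patDp/+ fat, against 2.10, 1.94 and 1.79 in wild type fat. It spans 141 bases of the genome (chr7:28421973-28422113) and so crosses an exon junction. On both probes patDp/+ replicates 2 and 3 were below all wild type animals, while replicate 1 was within their range. The differences were -0.11 ± 0.11 and -0.29 ± 0.16 (SE), with a limma adjusted p = 0.932 over genes for the first and 0.965 over probes for the second.

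Tbc1d4 encodes the Rab GTPase-activating protein that holds GLUT4 vesicles back until Akt phosphorylates it. Probe 1 had -0.32, -0.52 and -0.51 in patDp/+ fat, against -0.06, -0.34 and -0.29 in wild type fat. The overlap of the groups came from patDp/+ replicate 1 alone, which lay just above wild type replicate 2. The difference was -0.21 ± 0.11 (SE), with an unadjusted p = 0.0946 and an adjusted p = 0.885 in limma. Within slides 1, 2 and 3 it was -0.25, -0.17 and -0.21. The other probes assigned to the RefSeq transcript had differences of -0.19 ± 0.12 and -0.14 ± 0.18. Probe 4, on the cDNA, went the other way. It read -4.89, -5.60 and -4.95 in patDp/+ fat, against -5.36, -6.88 and -6.34 in wild type fat, and it was well above background on 4 arrays, wild type replicates 2 and 3 being the exceptions. It passed the filter through the patDp/+ arrays, and only 1 of 3 wild type arrays measured it, so its mean difference of 1.05 is given without a test. The groups overlapped, and with the deposited table the difference was 0.14. The mean over all 4 probes, 0.13, is therefore set by the dim probe 4, and the gene is described here by probes 1 to 3.

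Slc2a4 encodes GLUT4, the transporter that insulin moves to the surface of fat and muscle cells. Its probe (chr11:69756073-69756132, minus strand) was printed as 10 spots on each array, of which 2 were marked as outliers on wild type replicate 3 and left out. The mean over spots was 5.18, 5.11 and 5.50 in patDp/+ fat, against 5.25, 5.55 and 5.37 in wild type fat. Among all 10 spots of 1 array, with the 2 outliers included, the SD was 0.0256 to 0.0652. It was smaller than the SD between animals, 0.21 in patDp/+ fat and 0.15 in wild type fat. The groups overlapped over most of their range, and patDp/+ replicate 3 was the second highest of the 6 animals. The difference was -0.12 ± 0.14 (SE, unadjusted p = 0.393, adjusted p = 0.948 in limma). Its confidence interval of -0.45 to 0.20 sets how large a difference these 6 animals could have hidden. Within slides 1, 2 and 3 the values were -0.07, -0.44 and 0.13.

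Gys1, the glycogen synthase gene, had 1.17, 1.02 and 1.12 in patDp/+ fat, against 1.37, 1.43 and 1.27 in wild type fat. All 3 patDp/+ animals were below all 3 wild type animals, beside 5.87% of all genes whose groups stood apart in this direction. Its means were 1.102 ± 0.079 in patDp/+ fat and 1.357 ± 0.083 in wild type fat (SD, n = 3 each). The difference was -0.26 ± 0.08 (SE) with a confidence interval of -0.46 to -0.05, so that wild type fat had 1.19-fold more. In limma the unadjusted p was 0.0216, beside 2.92% of all genes lower at this threshold, and the adjusted p was 0.872. The exact permutation p of 0.1 is the smallest that 3 against 3 animals can give. Within slides 1, 2 and 3 the difference was -0.20, -0.42 and -0.15, and with the slide as a block the unadjusted p was 0.0553. Over the 15 alternatives in which it was computed the difference ranged from -0.33 with normexp to -0.21 without patDp/+ replicate 2. In most of them its sign could not turn. Fits with other filters, the slide as a block or another variance model reuse the same group means. Groups that stand apart also keep their order when 1 array is left out.

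**Figure D2:**
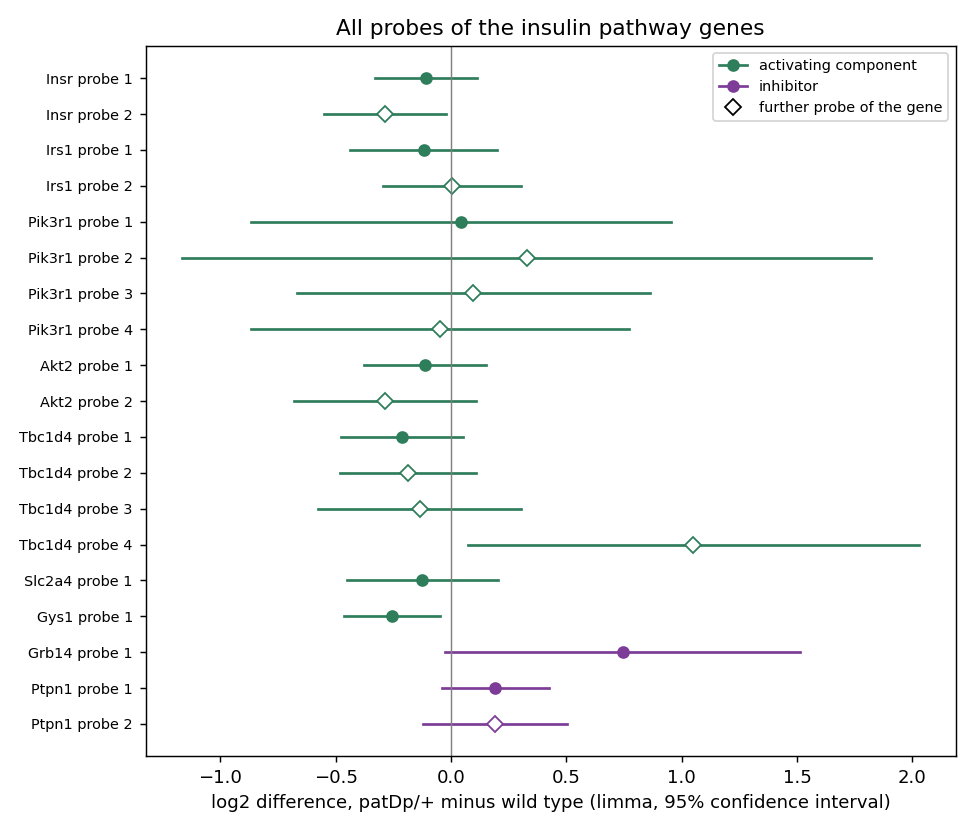
Log2 difference, patDp/+ minus wild type, of all 19 probes with limma's 95% confidence interval over all kept probes. Filled circles are the brightest probe of a gene, open diamonds its further probes, green the activating components and purple the inhibitors. The intervals of Insr probe 2 and Gys1 lie below 0. The interval drawn for Tbc1d4 probe 4 is not read as a test. That probe passed the filter through the patDp/+ arrays, and only 1 wild type array measured it. The 4 Pik3r1 probes have wide intervals around 0.

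Grb14 encodes an adaptor that binds the activated receptor and blocks its kinase. It had the largest difference among the brightest probes of the 9 genes. The values were 2.61, 2.24 and 1.97 in patDp/+ fat, against 0.86, 1.73 and 1.99 in wild type fat. Wild type replicate 1 stood lowest by far, and wild type replicate 3 lay just above patDp/+ replicate 3, so the groups overlapped. The means were 2.27 ± 0.32 in patDp/+ fat and 1.53 ± 0.59 in wild type fat (SD, n = 3 each), a ratio of 1.68-fold. The difference was 0.74 ± 0.32 (SE) with a confidence interval of -0.04 to 1.52, an unadjusted p = 0.0582 and an adjusted p = 0.877 in limma. Within slides 1, 2 and 3 it was 1.75, 0.51 and -0.02, so that slide 1 carried most of it. Without wild type replicate 1 the difference was 0.41, and without wild type replicate 3 it was 0.98.

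Ptpn1 encodes the tyrosine phosphatase that removes phosphate from the insulin receptor. Its brighter probe (chr2:167802296-167802355) read 3.61, 3.64 and 3.43 in patDp/+ fat, against 3.47, 3.27 and 3.37 in wild type fat. Only patDp/+ replicate 3 fell within the wild type range. The second probe read 0.72, 0.68 and 0.35 in patDp/+ fat, against 0.53, 0.30 and 0.35 in wild type fat, and there again patDp/+ replicates 1 and 2 were above all wild type animals. Both probes had a difference of 0.19, with an SE of 0.09 for the first and 0.13 for the second, and the limma adjusted p of the first was 0.881. Within slides 1, 2 and 3 the first probe differed by 0.14, 0.37 and 0.06. With normexp background correction its difference was 0.05.

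**Figure D3:**
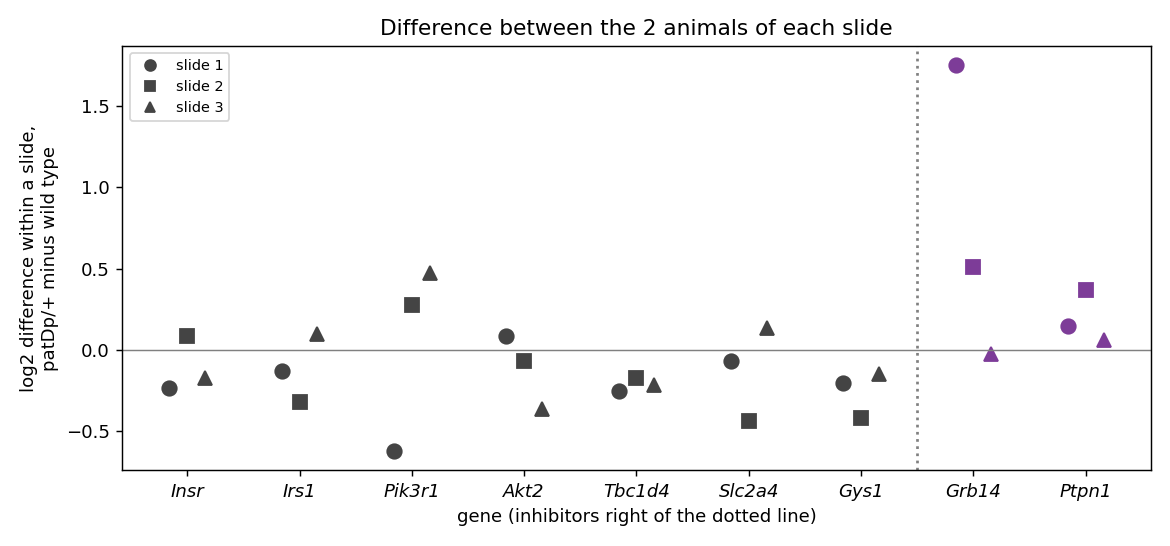
Log2 difference between the patDp/+ and the wild type animal of the same slide, for the brightest probe of each gene. Each symbol is 1 pair of animals. Tbc1d4 and Gys1 lie below 0 on all 3 slides and Ptpn1 above 0 on all 3, while Grb14 runs from -0.02 on slide 3 to 1.75 on slide 1.

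Set side by side, the activating components and the inhibitors had medians of opposite sign, -0.12 and 0.47. The activating side includes Tbc1d4, whose protein holds GLUT4 vesicles back until it is phosphorylated. The inhibitor side consists of 3 probes of 2 genes and rests on Grb14 for its size: the 3 probe differences were 0.74, 0.19 and 0.19. The sign held in every fit at the gene level for 7 of the 9 genes, the exceptions being Pik3r1 and, when its dim probe 4 was averaged in, Tbc1d4. Fits with other filters, the slide as a block or another variance model reuse the same group means and could not turn a sign. Depending on the fit, 5 to 7 activating components were below 0, and both inhibitors were above 0 in each. Slide 3, the pair in which Grb14 did not differ, also had the smallest difference for Ptpn1 and positive differences for Irs1, Pik3r1 and Slc2a4. On slides 1 and 2 both inhibitors were higher in the patDp/+ animal, and Irs1, Tbc1d4, Slc2a4 and Gys1 were lower. Tbc1d4 and Gys1 were lower on slide 3 as well. Pik3r1 was lower on slide 1 (-0.62) and higher on slide 2 (0.27) as on slide 3 (0.48). Insr was lower on slides 1 and 3 but higher on slide 2 (0.09), and Akt2 was higher on slide 1 (0.09) and had its lowest value on slide 3 (-0.36).

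Genes with other roles in the pathway were taken from lists written from their known functions. Among 15 other inhibitors, 9 had a positive and 6 a negative difference, with a median of 0.01. At an unadjusted p under 0.05, 2 of them were higher, beside 2.68% of all genes in this direction, and 0 were lower. Socs3, which encodes a suppressor of cytokine signalling that also blocks the insulin receptor, had 1.48, 1.97 and 1.27 in patDp/+ fat, against 1.07, 0.96 and 0.83 in wild type fat. The groups stood apart, beside 5.23% of all genes higher in this way. The difference was 0.62 ± 0.19 (SE, unadjusted p = 0.0156, adjusted p = 0.872 in limma), with 0.42, 1.00 and 0.44 within slides 1, 2 and 3. Socs3 is induced by cytokines, and the macrophage markers given above had a higher summed level in the same arrays; their part in this value was not tested. Enpp1, whose membrane protein interferes with the receptor, had -1.00, -1.05 and -1.32 in patDp/+ fat, against -1.61, -1.44 and -1.29 in wild type fat, with a difference of 0.32 ± 0.13 (unadjusted p = 0.0458, adjusted p = 0.877 in limma). With the slide as a block the unadjusted p of Enpp1 was 0.102, and it was under 0.05 in 8 of 15 alternative fits. Its slide 3 pair differed by -0.04, and its dimmer probe by 0.13 ± 0.12. Grb10, a relative of Grb14, had a difference of 0.01 ± 0.10. Tsc1 (-0.16 ± 0.09) and the Akt phosphatase gene Phlpp2 (-0.13 ± 0.11, with patDp/+ replicate 1 missing as an outlier spot) completed the 4 genes with the smallest p. The dimmer probes of Tsc1 had -0.14 ± 0.19 and 0.15 ± 0.22 (SE), both with overlapping groups.

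The adaptors near the receptor numbered 11, with 4 positive and 7 negative differences, a median of -0.04 and 0 at an unadjusted p under 0.05. Grb2, which links receptors to Ras, had the smallest p (0.20 ± 0.10, SE), with 4.08, 4.07 and 4.05 in patDp/+ fat and 3.94, 3.67 and 3.99 in wild type fat. Sh2b2 (-0.16 ± 0.09), Sos1 (0.08 ± 0.08) and Gab1 (-0.08 ± 0.11) followed. Of 13 genes of phosphoinositide 3-kinase, Akt and the mTOR complexes, 7 were positive and 6 negative, with a median of 0.01 and 0 at an unadjusted p under 0.05. The catalytic subunit genes Pik3cb and Pik3ca had -0.28 ± 0.14 and -0.14 ± 0.07, and Mlst8, a subunit of both mTOR complexes, had 0.12 ± 0.09. Pik3r3 had 2.13 ± 1.91, a value made by 1 array: wild type replicate 2 read -7.58, while the other 5 arrays read -0.84 to -0.39, and without it the difference was -0.24.

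Of 14 genes of GLUT4 vesicle traffic, 6 were positive and 8 negative, with a median of -0.01, a range of -0.16 to 0.16 and 0 at an unadjusted p under 0.05. Myo1c, a motor that brings GLUT4 vesicles to the membrane, had 0.16 ± 0.10 (SE). Slc2a1, the gene of the basal transporter GLUT1, had 0.79, 0.67 and 0.71 in patDp/+ fat, against 0.68, 0.40 and 0.69 in wild type fat, a difference of 0.14 ± 0.10 with overlapping groups. The syntaxin gene Stx4a (-0.09 ± 0.07) and the sortilin gene Sort1 (-0.16 ± 0.14) had the next smallest p.

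Around Gys1, the list of hexokinases and glycogen enzymes had 5 positive and 10 negative differences among 15 genes, a median of -0.06 and 0 at an unadjusted p under 0.05. Pygm, the glycogen phosphorylase of muscle, had -0.37 ± 0.17 (SE), but 0.33 with normexp background correction. Hk1, a hexokinase gene, had 0.15 ± 0.07, and the glycogen-targeting phosphatase subunits Ppp1r3c and Ppp1r3d had -0.27 ± 0.18 and 0.18 ± 0.14. FoxO factors are excluded from the nucleus when Akt is active, and genes they activate are known to fall with insulin action. Of 9 such factors and genes, 5 were positive and 4 negative, with a median of 0.01 and 0 at an unadjusted p under 0.05. The list mixes the factors, which Akt controls through their location, with genes they activate, so its median is not read as FoxO activity. Foxo3 was well above background on only 3 arrays, and Bcl6 had no value for wild type replicate 2. Foxo1, the main FoxO gene of fat, had 3.23, 3.22 and 3.10 in patDp/+ fat, against 3.24, 3.38 and 3.32 in wild type fat, a difference of -0.13 ± 0.08 (unadjusted p = 0.15, adjusted p = 0.905 in limma). The groups stood apart only between 3.23 and 3.24. Its second probe had a difference of -0.02 ± 0.09 (SE), with overlapping groups. Foxo4 (0.23 ± 0.11), Sesn3 (0.16 ± 0.14) and Ccng2 (-0.10 ± 0.12) were the other 3 with the smallest p. Over these 77 further genes, 2 had an unadjusted p under 0.05, beside 5.6% of all genes. The groups stood apart in the higher direction for 3 of them (Grb2, Socs3 and Hk1) and in the lower direction for 4 (Pik3ca, Tsc1, Stx4a and Foxo1), beside 5.23% and 5.87% of all genes.

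**Figure D4:**
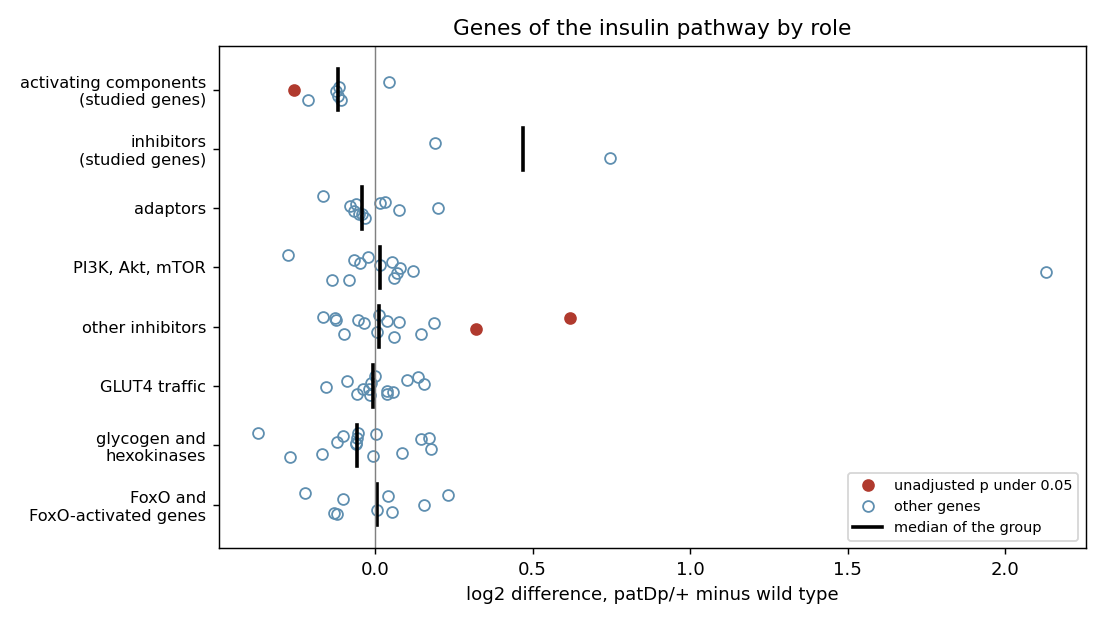
Log2 difference, patDp/+ minus wild type, of each measured gene by its role in the pathway, with 1 point per gene, red where the unadjusted p was under 0.05, and black bars at the medians. The medians of the 6 further groups lie between -0.06 and 0.01, and the point at 2.13 is Pik3r3, which rests on 1 array.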

How the data were processed

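Gene expression was measured on 6 one-colour (Cy3) Agilent arrays, 1 per animal, grouped by the sample titles (3 patDp/+, 3 wild type). Per the file headers, Feature Extraction 9.5.1.1 gave the processed intensity, which is background-subtracted and detrended within an array but not scaled between arrays, and the mean and local background intensity of each spot. A further table, deposited as log2 values and quantile normalized by its name, had column medians of 7.58, and how its background was treated is unknown. Tools listed in the submitters' processing notes are limma 3.18.2 and Agilent Feature Extraction 9.5.

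Here, outlier spots were left out, log2 processed intensities were averaged over the spots of a probe, and the 75th percentile over non-control probes was subtracted per array. Of 41174 probes, 27975 were well above background on at least 3 arrays and were kept. A gene was represented by its brightest kept probe (19194 genes or unnamed features, names updated through RefSeq accessions for 27050 probes, gene table of assembly GRCm38.p6). limma 3.58.1 in R 4.3.3 (lmFit, eBayes, two-sided, no covariates) was fitted over all genes, and separately over all kept probes, with Benjamini-Hochberg adjustment at 0.05. Reported genes are all members, plus up to 4 of each pathway list with the smallest p, and marker genes where their level was needed. Grb10 was added after its values were seen. The members and lists were chosen with earlier results of these data known. The design speaks of separate mice, so p-values measure the spread between animals. Same-numbered animals shared a slide, but their deviations from the group means correlated at 0.106, -0.090 and -0.039, so the numbers were not taken as pairs. Alternatives were other background corrections, normalizations, filters, probe summaries, weights and variance models, the deposited table, the slide as a block, and leaving out each array.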

Additional observations from a re-analysis of the deposited data

How the results depend on the processing

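Over all alternatives, 0 genes passed the adjusted threshold in limma. Counts at an unadjusted p under 0.05 were 1075, with 1742 under array weights and 755 to 1788 when 1 array was left out, the highest without patDp/+ replicate 3. With the replicate number, and thus the slide, as a block the count was 982. Each brightest-probe sign of Insr, Irs1, Akt2, Slc2a4, Gys1, Grb14 and Ptpn1 held in all 15 fits. For these genes, fits with other filters, the slide as a block or another variance model reuse the same group means and could not turn a sign. Leaving out 1 array moved several sizes by over 1.5 times. Akt2 was -0.19 and -0.016 with patDp/+ replicates 1 and 3 left out in turn. Insr was -0.052 without wild type replicate 1 and -0.161 without wild type replicate 2. Irs1 was -0.065, -0.040 and -0.25 without patDp/+ replicates 1, 2 and 3. Slc2a4 was -0.047 and -0.24 without patDp/+ replicates 2 and 3, and -0.19 and -0.045 without wild type replicates 1 and 2. Tbc1d4 was -0.13 and Grb14 0.41 without wild type replicate 1. Pik3r1 turned to -0.071 with normexp, and without single arrays it ranged from -0.24 to 0.47. It was negative without patDp/+ replicate 1 (-0.05) or 3 (-0.03) and without wild type replicate 2 (-0.24) or 3 (-0.10). Tbc1d4 was 0.13 and Sos1 -0.013 with the mean of all probes. With normexp, Gab1 (0.10), Pygm (0.33), Insr probe 2 (0.33) and Tbc1d4 probe 3 (0.058) turned sign. Pik3r3 ranged from -0.24, without wild type replicate 2, to 3.36. Under array weights, Irs1 probe 2 was -0.11 and Pik3r1 probe 4 was 0.085. Leaving out 1 array gave ranges of -0.089 to 0.086 for Irs1 probe 2, -0.093 to 0.46 for Pik3r1 probe 3, -0.28 to 0.32 for Pik3r1 probe 4 and -0.27 to 0.062 for Tbc1d4 probe 3, each with turned signs. The cause of these turns was not tested. List medians moved with normexp to -0.23 for the activating components, -0.054 for the kinase list, -0.090 for other inhibitors, -0.070 for GLUT4 traffic and -0.12 for FoxO. The FoxO median was -0.078 with quantile normalization and -0.074 with the mean of probes, which also gave 0.060 for other inhibitors and 0.038 for GLUT4 traffic. Over all probes the median was 0.19 for Grb14 and Ptpn1 and -0.022 for the kinase list. The GLUT4 traffic median ranged from -0.037 to 0.031 without single arrays. Of all genes, 47.3% were higher in patDp/+ fat, but 59.7% with normexp, where the median of all genes moved by 0.082. At an unadjusted p under 0.05, 514 were higher and 561 lower, against 528 and 303 with normexp and 736 and 476 with no filter on dim probes, and 1099 and 689 without patDp/+ replicate 3. With 3 animals a group the precision is limited to the intervals given above, and signal over background limits dim probes such as Tbc1d4 probe 4.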
